A study of Oryza sativa with 6 samples.

Results

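Sodium and potassium transporter genes were followed in leaves of rice seedlings entering a salt bath. The members were genes whose symbol or synonym in the RefSeq rice gene table was SOS1, or HKT, HAK, AKT, KAT, TPK or NHX followed by a digit. This rule found 36 genes, of which 26 had a probe set assigned to 1 gene, out of 17905 genes with such a probe set. Each gene was read from its probe set of highest mean log2 signal, and a set whose name ends in _x_at (probes that may match other transcripts) was taken only where a gene had no other. The 26 were 22 HAK genes, HKT1;5, AKT1, TPK2 and TPK3. The table gave no gene under SOS1, NHX or KAT, and genes without a one-gene probe set, among them HKT1;1, HKT1;3, HKT1;4, HKT2;1, HKT2;3, HKT2;4, HAK6, HAK19 and HAK24, are not analysed here.

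Plants take up potassium through HAK carriers and inward channels such as AKT1, and hold sodium out of the shoot with HKT carriers that draw it back from the xylem. HAK proteins (also called KUP or KT) form a large family, in which some members serve high-affinity uptake in roots and others move potassium within the plant or across the vacuolar membrane. Sodium chloride competes with potassium uptake, so the potassium to sodium ratio of leaves is a common measure of salt tolerance in rice.

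The name TPK needs care. In the same gene table, the tandem-pore potassium channels of the vacuole carry the synonyms TPKA (KCO1), TPKB (KCO2) and TPKC (KCO3), which the rule does not take. The symbols TPK2 and TPK3 are used in rice for thiamine pyrophosphokinases, enzymes that make the cofactor thiamine pyrophosphate. TPK2 and TPK3 were kept as members by the rule but are described apart from the transporters, and counts are given with and without them.

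The seedlings were Zhonghua 11, a japonica rice, either nontransgenic or transgenic for antisense OsPDCD5 (the gene's name refers to programmed cell death). They were 2 weeks old and grown in Murashige and Skoog medium at 28 °C with 14 h of light and 10 h of dark. Leaves of each genotype were taken at 3 stages: untreated, after 20 min and after 3 h in dishes of 200 mM NaCl. Each group was 10 plants on 1 Affymetrix array. The labels name neither the promoter of the construct nor how many transformed lines were used, and they list no seedlings moved to salt-free dishes, so the effect of NaCl cannot be told apart from that of the move and of time. The transgene likewise cannot be told apart from other stable differences between the seedlings.

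With 6 arrays and no replicates, their number limits the precision of every value. Salt changes were averaged over 2 array pairs, 1 per genotype, and genotype differences over 3, 1 per stage. The standard error comes from how far each array departs from additive genotype and stage effects, in the gene itself and in probe sets of similar level. The latter weigh more, with 4.53 prior against 2 residual degrees of freedom. Thus no p-value here speaks of spread among replicate samples. Leaf identity was checked on the 2 leaf markers with a probe set, CAB2R (an antenna protein) and rca (Rubisco activase), with signals of 27103 to 42348 and 38392 to 51221. Of 7 root marker probe sets, Lsi2 lay at the floor on every array (1 to 1.53) and NRT2;2 at 4.35 to 51.6. Lsi1 lay at 537 to 1101, IRT2 at 168 to 546 and IRT1 at 18.3 to 155. NAS1 and NAS2, nicotianamine synthases of iron transport, reached 6836 and 5112, so the root markers were not uniformly low.

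Of the 26 genes, 21 passed the filter on low signals and were tested, 19 without TPK2 and TPK3. The filter kept probe sets whose mean over the 6 arrays reached the median of all rice probe sets. The 5 genes that did not pass were HAK3 (1 to 17.1), HAK4 (1.06 to 12.4), HAK13 (3.42 to 46.3), HAK20 (1.57 to 26.5) and HAK26 (1.39 to 13.6), with signals near the lower end of the scale. HAK3 has a second, _x_at probe set that passed, with signals of 74.1 to 167 and no call in any contrast. MAS5 signals depend on the probes, so levels are compared between arrays within a gene and not between genes. Among the genes tested, the log2 level of HAK15 varied least over the arrays, with a range of 0.27, and that of TPK3 most, with 2.26.

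**Figure D1:**
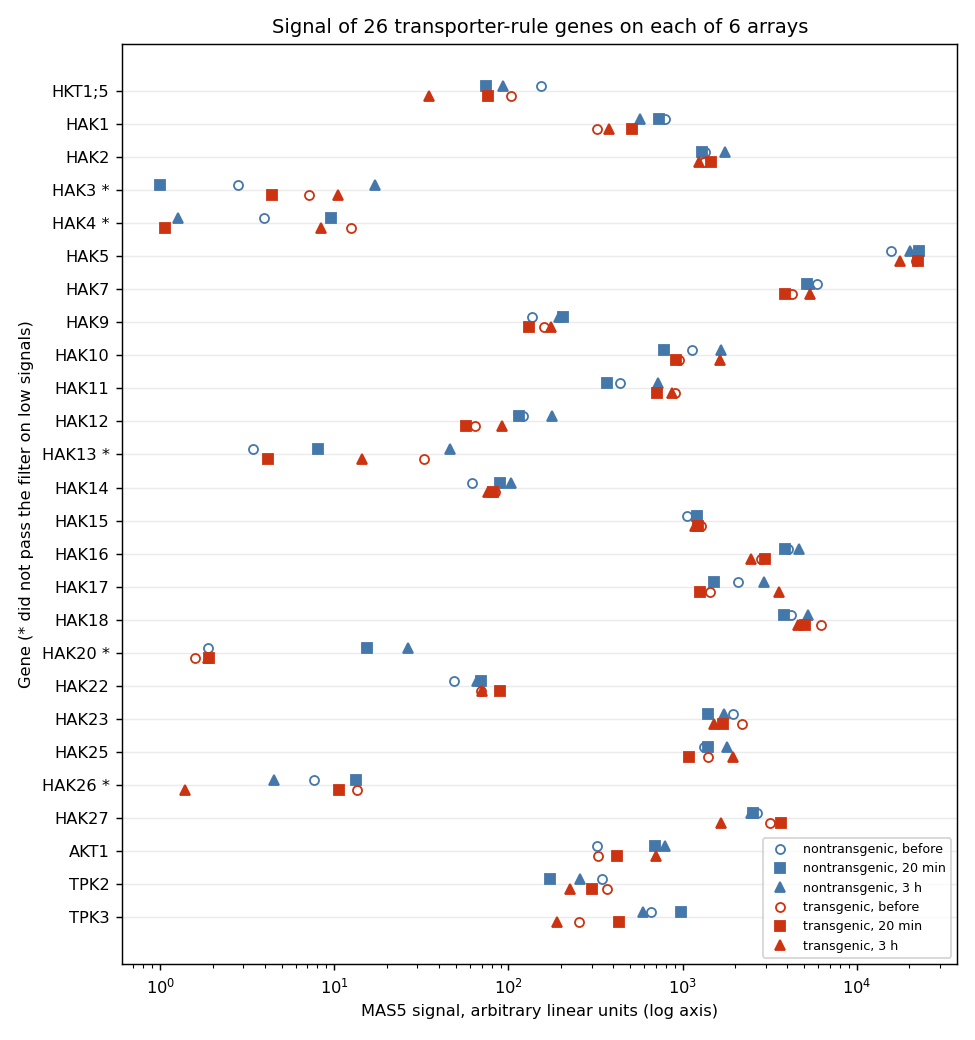
MAS5 signal (linear units, log axis) of the 26 genes with a one-gene probe set, a point per array, with nontransgenic arrays in blue and transgenic arrays in red. AKT1 has its 2 lowest points before treatment, HAK12, HAK16, HAK1 and TPK3 have all red points to the left of all blue points, and the 5 starred genes have a point below a signal of 5.

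Salt exposure was asked about first at 20 min. No member passed the threshold then, by limma's moderated test with Benjamini-Hochberg adjustment over all probe sets (adjusted p under 0.05). An unadjusted p under 0.05 was found for 3 of 21 members, beside 3422 of all 28629 probe sets tested. Of all probe sets in the fit, 0.947% were called at 20 min (0.789% higher and 0.157% lower). The median log2 change of the 21 members was 0.02 (0.01 over all probe sets tested), with a range of -0.65 to 0.71. In both genotypes, 4 members were higher and 9 lower, which is 19.0% and 42.9%, against 31.9% and 30.0% of all probe sets tested.

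After 3 h the potassium channel gene AKT1 (LOC4326245) was the member called. AKT1 encodes an inward-rectifying channel that carries potassium into rice roots and is switched on by the kinase CIPK23 with the calcium sensor CBL1. Its signal in nontransgenic leaves was 323 before treatment, 695 at 20 min and 791 at 3 h. In transgenic leaves it was 328, 420.5 and 699. The signals before treatment were the lowest in both genotypes, and both 3 h arrays lay above the other 4.

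The fitted change of AKT1 at 3 h was 1.15 ± 0.22 (log2 change ± SE, adjusted p = 0.0328), a 2.23-fold rise. At 20 min it was 0.71 ± 0.22 (adjusted p = 0.264), with 1.07 in nontransgenic and 0.34 in transgenic leaves. In bulk leaf RNA, more RNA per cell cannot be told apart from more cells of the kind that holds it. The AKT1 probe set is an _x_at set, so part of its signal may come from other transcripts. Its call was lost without the nontransgenic array from before treatment (0.92, adjusted p = 0.170), without the transgenic one (1.38, adjusted p = 0.0892) and without the transgenic 3 h array (1.07, adjusted p = 0.110).

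One call of 21 members is 4.76% (1 of 19, or 5.26%, without TPK2 and TPK3), where 6.01% of all probe sets were called at 3 h (3.44% higher and 2.58% lower). The members as a set thus moved no more often than the table as a whole. Their median change at 3 h was 0.10, with a range of -0.94 to 1.15, beside 0.01 over all probe sets tested.

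The vacuolar transporter gene HAK10 (LOC4341573) and the family member HAK17 (LOC4347211) had their highest signals at 3 h. In rice, HAK10 is known as a potassium transporter of the vacuolar membrane. HAK10 had signals of 1134, 781 and 1659 before treatment, at 20 min and at 3 h in nontransgenic leaves, and of 948, 911 and 1632 in transgenic leaves. HAK17 had signals of 2087, 1523 and 2925 in nontransgenic leaves and of 1445, 1257 and 3572 in transgenic leaves. For both genes the 20 min array was the lowest of its genotype, and both 3 h arrays lay above the other 4.

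Against the arrays from before treatment, HAK17 stood at 0.89 ± 0.20 (adjusted p = 0.0564) and HAK10 at 0.66 ± 0.16 (adjusted p = 0.0678) at 3 h, neither past the threshold. Against 20 min, a comparison added after the values had been seen, HAK17 rose by 1.21 ± 0.20 (adjusted p = 0.0183) and HAK10 by 0.95 ± 0.16 (adjusted p = 0.0195). These are 2.32-fold and 1.93-fold rises. HAK10 was called on its second probe set as well (1.07, adjusted p = 0.0184), but HAK17 was not (0.81, adjusted p = 0.0887), and both second sets are _x_at sets. The second HAK17 set read 475, 688 and 1212 in nontransgenic leaves, where the 20 min array was thus not the lowest. In transgenic leaves it read 579, 465 and 837. HAK10 lost its call without the nontransgenic 20 min array (0.77, adjusted p = 0.123) or the transgenic 3 h array (0.95, adjusted p = 0.0584), and HAK17 without the transgenic 20 min array (1.14, adjusted p = 0.0947).

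Between 20 min and 3 h, 3 of 21 members changed, HAK10 and HAK17 higher and TPK3 lower. This is 14.3%, or 10.5% (2 of 19) without TPK2 and TPK3, beside 8.67% of all probe sets (4.45% higher and 4.23% lower). The root marker NAS2 fell over the same interval (-1.49 ± 0.35, adjusted p = 0.0499), 1 of 5 root markers tested, while NAS1, Lsi1, IRT2 and IRT1 stood at -1.02, -0.04, 0.63 and 0.76 without a call. Their part in these changes was not tested. HAK25, at 1331, 1404 and 1789 in nontransgenic and 1397, 1089 and 1943 in transgenic leaves, also had both 3 h arrays on top. Its change from 20 min was 0.59 ± 0.16 (adjusted p = 0.0800). In all, 4 of 21 members had both 3 h arrays above the other 4, as did 12% of all probe sets. HAK27 alone had both 3 h arrays below the others, as did 11% of all. Its signals were 2670.4, 2533 and 2464 in nontransgenic and 3193, 3684 and 1668 in transgenic leaves, with no call (-0.52 ± 0.25, adjusted p = 0.289, at 3 h).

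**Figure D2:**
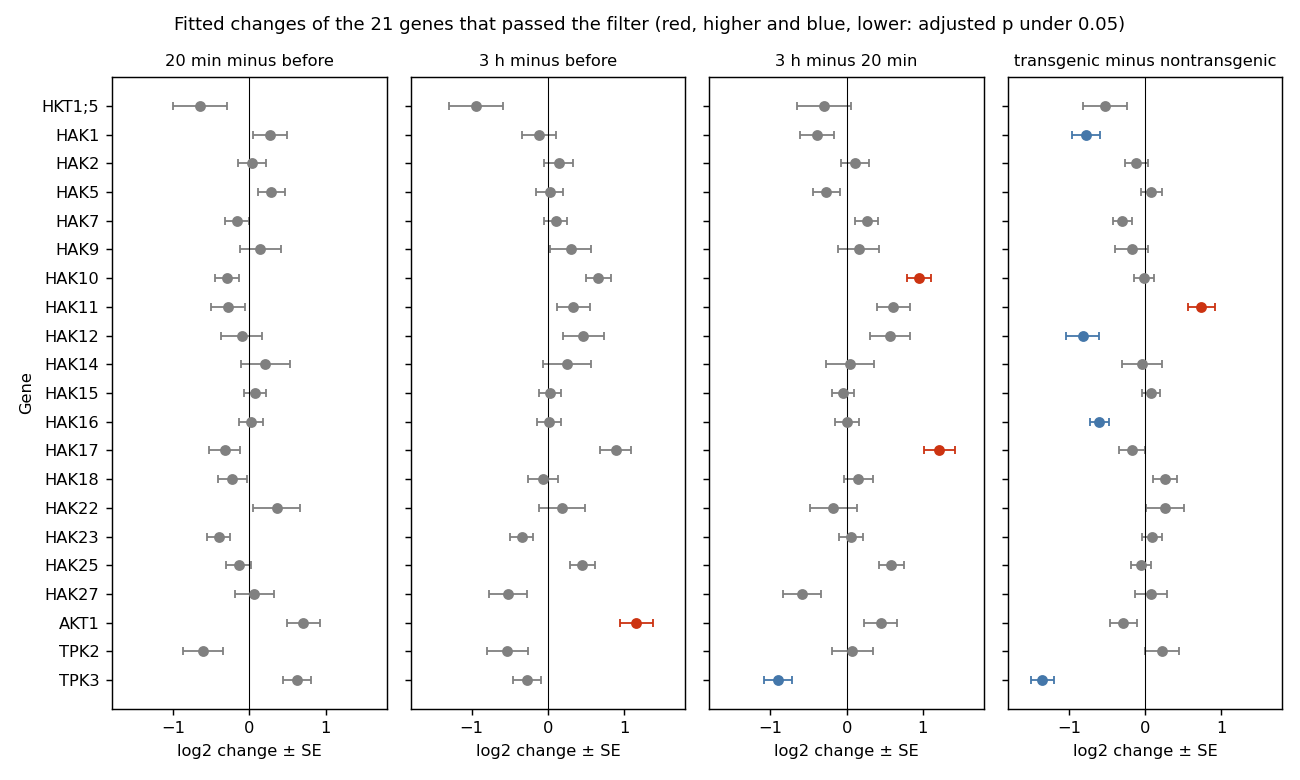
Fitted log2 changes with standard errors (horizontal bars) of the 21 genes that passed the filter, a panel per contrast, with called genes in red (higher) or blue (lower). No gene is coloured at 20 min, AKT1 at 3 h, HAK10, HAK17 and TPK3 between 20 min and 3 h, and HAK1, HAK11, HAK12, HAK16 and TPK3 between genotypes.

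HKT1;5 (LOC4327757, also SKC1) is the sodium carrier that unloads sodium from the xylem in rice and underlies a locus for shoot potassium content under salt. It was the single HKT gene measured. Its signal was 154 before treatment, 74.6 at 20 min and 92.6 at 3 h in nontransgenic leaves, and 104, 76.0 and 34.8 in transgenic leaves. The array from before treatment was the highest in each genotype. The fitted changes were -0.65 ± 0.36 at 20 min (adjusted p = 0.546) and -0.94 ± 0.36 at 3 h (adjusted p = 0.186), neither called. The standard error of 0.36 was larger than that of any other member tested.

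The uptake carriers showed no called change with salt. HAK5 (LOC4326945), which in rice takes up potassium at low supply and moves it from root to shoot, had signals of 15809, 22909 and 20298 in nontransgenic and 21949, 22583 and 17617 in transgenic leaves. Its changes were 0.29 ± 0.17 at 20 min and 0.02 ± 0.17 at 3 h (adjusted p = 0.586 and 0.964). A second HAK5 probe set read 434, 291 and 382 in nontransgenic leaves, above its 177, 207 and 129 in transgenic leaves. That set was lower in transgenic leaves (-1.05, adjusted p = 0.0230) where the set with the higher mean gave 0.08, so the genotype difference of HAK5 is not settled by this array. HAK18, which in rice is known for returning potassium through the phloem, stood at -0.07 ± 0.19 at 3 h (adjusted p = 0.882).

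Apart from HAK10, HAK17 and HAK27, given above, the other HAK genes tested gave 3 h changes between -0.35 (HAK23) and 0.46 (HAK12), none called. At 20 min the other HAK genes lay between -0.40 (HAK23) and 0.36 (HAK22). HAK15, measured by an _x_at set alone, stayed between 1061 and 1279 on all 6 arrays. Over the 6 arrays HAK2 ranged from 1243 to 1756, HAK7 from 3847 to 5888, HAK9 from 131 to 205, HAK14 from 61.5 to 103, HAK18 from 3837 to 6261, HAK22 from 48.5 to 89.5 and HAK23 from 1405 to 2184. None of these 7 was called in any contrast on the probe set shown. For HAK22 an _x_at set gave a fall between 20 min and 3 h (-0.94, adjusted p = 0.0386), where the set shown stood at -0.17.

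**Figure D3:**
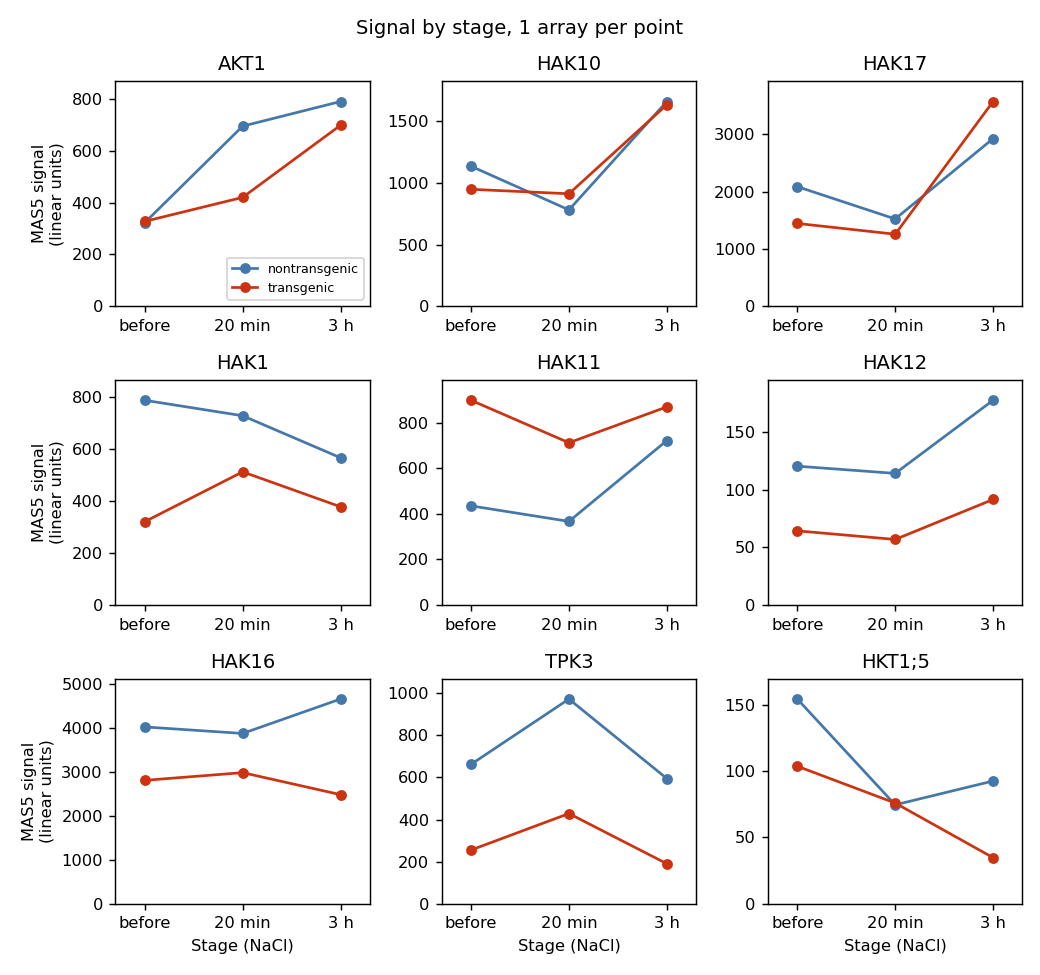
MAS5 signal (linear units) by stage for the 8 genes called in a contrast and HKT1;5, with a point per array and a line per genotype. AKT1 is lowest before treatment, HAK10 and HAK17 are highest at 3 h, and HAK12, HAK16, HAK1 and TPK3 keep the nontransgenic line above the transgenic line, HAK11 the reverse.

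The genotypes were compared over all 3 stages. The uptake carrier genes HAK1 and HAK16 and the sodium-retrieving carrier gene HAK12 were lower in transgenic leaves, and HAK11 was higher. In all 5 of 21 members were called, or 23.8%, with TPK3 the fifth; without TPK2 and TPK3 it was 4 of 19, or 21.1%. The share over all probe sets was 20.6% (9.94% higher and 10.6% lower), so the members differed about as often as the table as a whole. Their median difference was -0.06, beside 0.00 over all probe sets tested.

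HAK16 (LOC4333298), which in rice takes up potassium at low supply, had signals of 4021, 3873 and 4655 in nontransgenic leaves before treatment, at 20 min and at 3 h. In transgenic leaves it had 2806, 2982 and 2481. Every transgenic signal lay below every nontransgenic one. The difference was -0.60 ± 0.13 (adjusted p = 0.0206), a 1.51-fold lower level. HAK27, the next gene to HAK16 in the reference order with none between them, differed by 0.08 ± 0.21 (adjusted p = 0.826).

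HAK1 (LOC4335729), a high-affinity potassium uptake carrier that rice roots induce when potassium is short, had signals of 789, 729 and 568 in nontransgenic leaves. In transgenic leaves it had 321, 513 and 379, again with no overlap. The difference was -0.77 ± 0.19 (adjusted p = 0.0308), with -1.26 before treatment, -0.49 at 20 min and -0.56 at 3 h. The second HAK1 probe set, an _x_at set, gave -1.15 (adjusted p = 0.00774). The calls of HAK16 and HAK1 were lost without the array from before treatment of either genotype, HAK16 at -0.64 in both cases (adjusted p = 0.0660 and 0.0683) and HAK1 at -0.53 (adjusted p = 0.134 and 0.123).

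HAK12 (LOC9270408) encodes a carrier that in rice removes sodium from the xylem. Its signals were 120.5, 114 and 178 in nontransgenic leaves and 64.4, 56.9 and 91.6 in transgenic leaves. The transgenic signals all lay below the nontransgenic ones, and the difference was close to even over the stages at -0.76, -0.84 and -0.85. The fitted difference was -0.82 ± 0.22 (adjusted p = 0.0421), a 1.76-fold lower level. The call was lost on leaving out any 1 of the 6 arrays (adjusted p between 0.0937 and 0.175), although the value stayed between -0.84 and -0.80. It was also lost with equal 75th percentiles (-0.75, adjusted p = 0.0553) and with no filter (adjusted p = 0.139).

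HAK11 (LOC4336979) had signals of 435, 367 and 721 in nontransgenic leaves and of 898, 712 and 869 in transgenic leaves. The groups overlapped, since the nontransgenic 3 h signal lay above the transgenic one at 20 min. HAK11 was higher by 0.74 ± 0.18 (adjusted p = 0.0321), with 1.02 before treatment, 0.93 at 20 min and 0.26 at 3 h. Its call was lost without any 1 of the 4 arrays from before treatment and 20 min (0.60 to 0.64, adjusted p between 0.124 and 0.157). Of the transporters, none had all transgenic signals above all nontransgenic ones, as did 14.2% of all probe sets. With TPK3, 4 of 21 had all of them below, beside 14.6% of all.

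Scaling decided part of this comparison. Scaled to the poly-A spike-ins, RNAs designed to be added before labelling, the median of all probe sets shifted to -0.40 between genotypes, and the calls over all probe sets went from 2845 higher and 3044 lower to 1141 and 9866. Scaled to hybridisation controls, designed to be added after it, they were 2276 and 4056. Under the poly-A scaling HAK11 was at 0.30 (adjusted p = 0.267), above that median but without a call, while HAK16, HAK1 and HAK12 were at -1.04, -1.20 and -1.19. Under the hybridisation controls HAK11 was at 0.64 (adjusted p = 0.0478), and HAK16, HAK1 and HAK12 at -0.70, -0.87 and -0.90, all called. Of the 5 root markers tested, NAS1 and NAS2 were lower in transgenic leaves (-1.65 ± 0.44 and -1.03 ± 0.29, adjusted p = 0.0433 and 0.0482). IRT1, IRT2 and Lsi1 were not called, at -1.18, -0.67 and 0.43, so Lsi1 stood the other way. The summed signal of the 7 root marker probe sets was 5468, 13348 and 3735 in nontransgenic and 3911, 2943 and 3088 in transgenic leaves. NAS1 and NAS2 carried much of that sum, with 6836 and 5112 of the 13348. The part of root markers in the HAK differences was not tested.

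The largest genotype difference among the members belonged to TPK3 (LOC4338566), the likely thiamine pyrophosphokinase. TPK3 had signals of 662, 972 and 595 in nontransgenic leaves and of 255, 429 and 190.4 in transgenic leaves. Each transgenic signal lay below each nontransgenic one. It was lower by 1.35 ± 0.15 on the log2 scale (adjusted p = 0.00205), and this call held on leaving out each of the 6 arrays (adjusted p between 0.00340 and 0.0139). TPK3 also had its highest signal at 20 min in both genotypes, and from 20 min to 3 h it fell by 0.90 ± 0.18 (adjusted p = 0.0333). That second call was lost on leaving out any 1 of 5 arrays, all but the nontransgenic 3 h array, with changes between -1.05 and -0.74 and adjusted p between 0.0522 and 0.247. It was lost with no filter as well (adjusted p = 0.0528). TPK2 (LOC4326288), at 343, 172 and 258 in nontransgenic and 369.6, 300.2 and 225 in transgenic leaves, was called in no contrast.

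With 1 array per group, a difference between the genotypes in their salt change has no test, and the values of each pair are given instead. At 20 min, AKT1 changed by 1.07 in nontransgenic and 0.34 in transgenic leaves, and HAK1 by -0.11 and 0.65. At 3 h, HAK17 changed by 0.48 in nontransgenic and 1.30 in transgenic leaves, HAK27 by -0.12 and -0.93, and HAK11 by 0.71 and -0.05. AKT1 at 3 h was close in the 2 genotypes (1.25 and 1.06), as was HAK12 (0.50 and 0.42) and HAK25 (0.42 and 0.47). Both times are set against the same untreated arrays, so a high or low value there enters both.

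**Figure D4:**
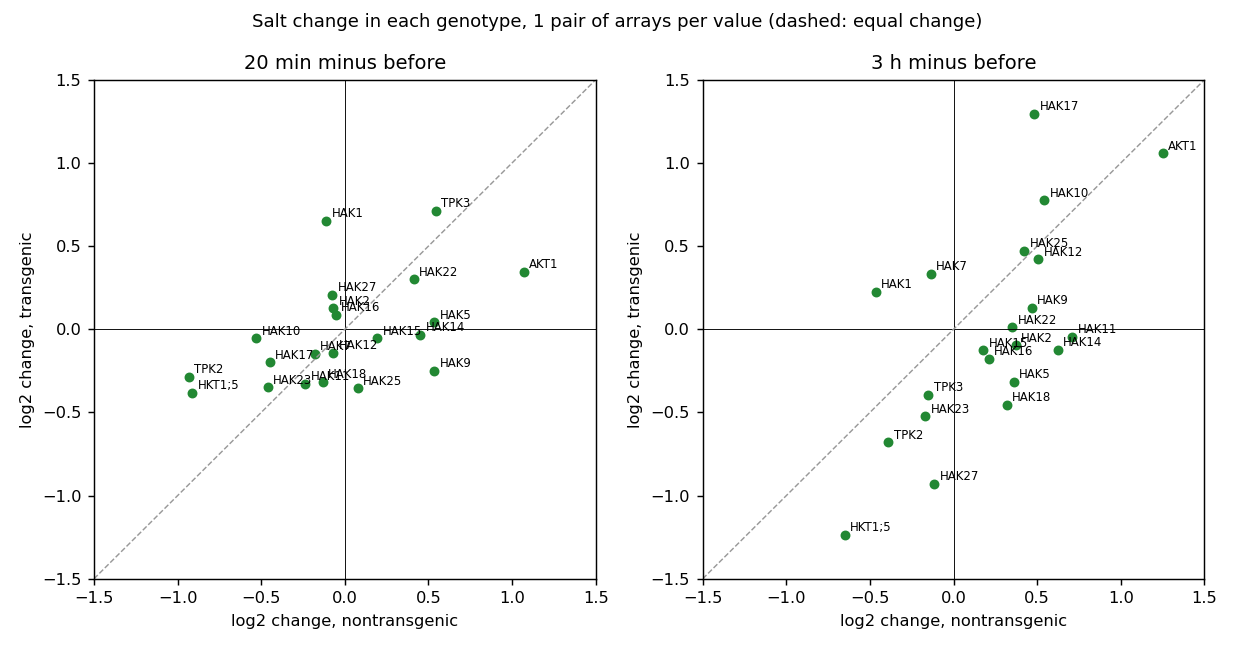
Log2 salt change of the 21 genes in nontransgenic (horizontal axis) and transgenic leaves (vertical axis), 1 pair of arrays per value, at 20 min (left) and 3 h (right), with a dashed line of equal change. AKT1 lies in the upper right at both times and HKT1;5 in the lower left, while HAK1 at 20 min and HAK18 at 3 h have opposite signs in the genotypes.

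The genes around the transporters came from a list of SOS pathway regulators, proton pumps and other cation carriers and channels. Of these, 18 were in the gene table and 14 had a probe set, all of which passed the filter; no proton pump was among them. None was called at 20 min or at 3 h against before treatment. An unadjusted p under 0.05 by limma was found for 3 and 6 of the 14, beside 3422 and 6327 of all 28629 probe sets tested. From 20 min to 3 h, the comparison added after the values had been seen, 2 of 14 were called. This is 14.3%, beside 8.67% of all probe sets. CBL4 (SOS3), the calcium sensor that activates the kinase CIPK24 (SOS2), fell by 1.77 ± 0.20 (adjusted p = 0.00599). The sensor gene CBL10 rose by 0.97 ± 0.18 (adjusted p = 0.0259). CBL4 had signals of 894, 2369 and 715 in nontransgenic and 1754, 3052 and 840.1 in transgenic leaves, highest at 20 min in both.

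CIPK23, the kinase that acts on AKT1, stood at 0.07 ± 0.13 at 20 min and -0.21 ± 0.13 at 3 h (adjusted p = 0.868 and 0.392). CIPK24 stood at 0.12 ± 0.13 at 3 h (adjusted p = 0.654). Between genotypes, the calcium exchanger gene CAX1a was higher by 0.54 ± 0.13 (adjusted p = 0.0282) and the glutamate receptor-like channel gene GLR3;1 by 0.67 ± 0.17 (adjusted p = 0.0354) in transgenic leaves. CAX3 was lower at -0.61 ± 0.14 (adjusted p = 0.0271). These 3 of 14 are 21.4%, again near the 20.6% of all probe sets. Unlike the member calls, the calls of these listed genes were not rerun under the alternative settings or with arrays left out. Second probe sets of GLR3;1 and CIPK23 were not read.

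The tandem-pore channel genes were looked up because the rule passes over them. KCO2 (TPKB), added after the tables had been seen, had signals of 65.9, 192 and 136 in nontransgenic and 71.2, 331 and 265 in transgenic leaves. Both arrays from before treatment lay below the other 4. Its changes were 1.67 ± 0.28 at 20 min (adjusted p = 0.0629) and 1.29 ± 0.28 at 3 h (adjusted p = 0.0509), neither past the threshold. KCO1 (TPKA) stood at 0.10 ± 0.15 and -0.28 ± 0.15 (adjusted p = 0.849 and 0.328), and KCO3 had no one-gene probe set.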

How the data were processed

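The deposited table held a log2 signal for each probe set, which the authors computed in MAS5 (per the submitters' processing notes); its version and scaling target are not given in the sources used here. The mean of the linear signal trimmed by 2% at each end was 500.1 on every array. The platform annotation tied 22436 of 57258 rice probe sets to 1 gene, 95 to several and 34727 to none; names came from RefSeq genes (assembly ASM3414082v1), which held all 22436. Then 16 was added to the linear signal and log2 taken again, so changes between signals near or below 16 are damped. Probe sets with a mean below the median (5.54) were left out, keeping 28629. Genotype and stage effects were estimated additively in limma 3.58.1 (lmFit, eBayes with intensity trend, R 4.3.3), with 2 residual and 4.53 prior degrees of freedom. P-values were adjusted by Benjamini-Hochberg over all 28629 with a threshold of 0.05. The functions were tested on simulated arrays. Every member was named. The members and lists were chosen with earlier results of these data known. VP1, matched by the list's pattern for proton pumps, was left out because in rice it names a seed transcription factor. Alternatives were offsets of 1 and 64, no filter, quantile normalization, equal 75th percentiles, 2 spike-in scalings, no intensity trend, other probe sets, and each array left out. Promoters and proteins were not used here.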

Additional observations from a re-analysis of the deposited data

Results flagged for a closer look

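Among the 21 members that passed the filter, 4 salt changes ran in opposite directions in the 2 genotypes, and the difference was not tested. Both sizes were above the median residual SD of 0.20 on the log2 scale, which describes single arrays and not differences between 2. The share of all probe sets that meet this rule was not counted, so the 4 are not shown to be more than usual. At 20 min HAK9 changed by 0.53 in nontransgenic and -0.25 in transgenic leaves, a difference of -0.78. At 3 h HAK18 changed by 0.32 and -0.45, a difference of -0.77, and HAK5 by 0.36 and -0.32, a difference of -0.68. HAK1 went the other way at 3 h, with -0.46 in nontransgenic and 0.23 in transgenic leaves, a difference of 0.69. None of these genes was called for a salt change. Each change rests on 1 pair of arrays, and the 3 h values of HAK18, HAK5 and HAK1 share their arrays. On those arrays the leaf marker rca had the signs of HAK18 and HAK5, with 0.34 in nontransgenic and -0.20 in transgenic leaves. The other leaf marker, CAB2R, was higher in both, at 0.60 and 0.11. The part of leaf markers in these changes was not tested.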

How the results depend on the processing

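The 9 member values past the threshold kept their direction under every alternative run. Without leaving out arrays, 60 of 75 alternative values stayed past it and 15 did not. On leaving out each array, 29 of 54 stayed and 25 did not, and the cause was not tested beyond the fewer samples. The count of members called at 20 min was 0 throughout. With no filter, which adjusts over 57258 probe sets, the count was 0 at 3 h and 2 between genotypes (HAK16 and TPK3), from 1 and 5, and 2 from 20 min to 3 h (HAK10 and HAK17), from 3. With equal 75th percentiles 4 were called between genotypes, HAK12 losing its call. Without the intensity trend it was 0 at 3 h, 2 between genotypes (HAK12 and TPK3) and 0 from 20 min to 3 h, where 0 of all probe sets passed at 20 min and 3 h, with 3103 and 5536 at an unadjusted p under 0.05. Of all probe sets 3151 then passed between genotypes (from 5889) and 100 from 20 min to 3 h (from 2483). Scaled to the poly-A spike-ins it was 2 at 3 h and 10 between genotypes, with the all-probe median at -0.40. On leaving out each array the count ran from 0 to 3 at 3 h, 1 to 6 between genotypes and 1 to 4 from 20 min to 3 h. Scaling to the hybridisation controls, chosen after seeing the data, moved the all-probe genotype median to -0.09 and left 5 calls. Over all probe sets, calls at 20 min, at 3 h and from 20 min to 3 h numbered 271, 1722 and 2483, and 152, 992 and 1524 with no filter. Scaled to the poly-A spike-ins, the calls at 20 min were 661 higher and 425 lower in place of 226 and 45. On leaving out each array, calls over all probe sets ran from 25 to 802 at 20 min, 315 to 2194 at 3 h, 2943 to 6118 between genotypes and 767 to 2981 from 20 min to 3 h. Probe sets whose mean level over the 6 arrays matched a MAS5 signal under about 30.4 fell below the filter. This limits what can be said of HAK4, HAK13, HAK20 and HAK26, and of HAK3 on the probe set shown.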
